A study of Mus musculus with 18 samples.

Results

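The 38 transcripts described here encode mouse enzymes that oxidise small molecules or join them to a polar group: 25 cytochromes P450 (Cyp), 6 UDP-glucuronosyltransferases (Ugt), 4 sulfotransferases (Sult) and 3 flavin-containing monooxygenases (Fmo). They are the rows of a read count table whose symbol carries one of these family names, Cyp51 left out, and whose counts summed to 100 or more over 18 libraries. Of 24527 rows, 153 carried such a name. No read was counted for 39 of them, 76 had 1 to 99 counts, and 38 reached the minimum. The summed count therefore chose the set, with Cyp2t4 and Cyp2c55 at 100 counts and Cyp4f37 at 124 just inside it, and Cyp2r1 at 96, Fmo2 at 92 and Sult1b1 at 78 just outside. A row that reached the minimum through one group had to differ between groups. Of the 127 counts of Fmo4, 48 and 44 came from the DMSO libraries of line PD883, and of the 430 counts of Cyp21a1, 169 and 170 came from the TGFb libraries of line PD454. DMSO libraries also held 198 of the 253 counts of Cyp4b1, 1348 of the 1436 of Fmo1 and 224 of the 265 of Ugt2b35. Of the members that fell with TGFb, Cyp1a1, Cyp26b1, Cyp2d26 and Ugt1a1 would also have missed the minimum without their DMSO reads. The members were thus chosen by measured counts, and how many of them changed is given as a description.

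The cells were 3 mouse pancreatic ductal adenocarcinoma lines of mixed strain background, PD454, PD7591 and PD883. Cultures received for 48 h either 2.5 µM ionomycin, which lets calcium into cells, or TGFb at 10 ng/ml, a growth factor known to push epithelia towards a mesenchymal state, or the vehicle DMSO. RNA was sequenced from 2 libraries per line and treatment, so that each treatment had 6, and the libraries carry the numbers 1 to 18 of the labels. All cultures, those with DMSO included, grew in a medium with dexamethasone and triiodothyronine, which are ligands of nuclear receptors, and with insulin, transferrin, selenium, nicotinamide, cholera toxin, Nu-serum and bovine pituitary extract. The labels do not say whether a line is 1 clone, or whether the libraries of a pair came from separate cultures. The p-values therefore measure the spread between these libraries, which may be technical.

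Cytochromes P450 insert oxygen into drugs, pollutants, fatty acids, sterols, steroids and retinoids, with electrons that cytochrome P450 reductase passes on at the endoplasmic reticulum and that ferredoxin passes on in mitochondria. Flavin-containing monooxygenases oxygenate nitrogen and sulfur atoms. Glucuronosyltransferases and sulfotransferases then attach glucuronic acid or sulfate, which makes the product easier to excrete through efflux pumps. The liver carries most of this chemistry, while epithelia such as the intestine, the airway and the pancreatic ducts carry a smaller and different set. Nuclear receptors and the aryl hydrocarbon receptor are known regulators of many of these genes.

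Library totals ran from 17591005 to 37894692 counts. The 12 genes of a ductal carcinoma list all had counts under each treatment, with a median summed level of 6968 counts per 1000000 (CPM) with ionomycin, 4767 CPM with TGFb and 7340 CPM with DMSO. Of 10 acinar genes, Cpa1, Cela2a and Ptf1a had no count in any library, and 4, 5 and 6 genes had counts with ionomycin, TGFb and DMSO. The acinar sum was 0.298 to 1.51 CPM with ionomycin, 2.59 to 6.23 CPM with TGFb and 0.131 to 1.80 CPM with DMSO, so that the TGFb libraries lay above all others. With TGFb most of it was Cela1, which had 40 to 201 counts per library, against 1 to 19 with ionomycin and 1 to 47 with DMSO. The islet genes Ins1, Ins2 and Sst had no count in any library. All 10 genes of a hepatocyte list, which includes plasma protein genes such as Apoa1, had counts under each treatment. Their summed level was 572 to 2263 CPM with ionomycin, 33.1 to 198 CPM with TGFb and 403 to 956 CPM with DMSO. With ionomycin most of it was Apoa1, at 7570 to 40628 counts per library. Alb went the other way, with 8 to 53 counts per library with ionomycin against 113 to 1073 with DMSO. In the TGFb libraries other than 12 the sum was nearly all Hnf4a. The 8 genes of a fibroblast list summed to 1.55 to 4.24 CPM with ionomycin, 6.97 to 102 CPM with TGFb and 2.08 to 6.04 CPM with DMSO. With TGFb most of this was Col1a1, at 94 to 2403 counts per library. For the 8 genes of an intestinal list, among which Cdx1 had no count in any library, the sums were 15.7 to 86.9, 0.634 to 9.99 and 9.81 to 96.1 CPM in the same order. The 8 immune genes summed to 47.0 to 205, 23.3 to 44.0 and 37.1 to 82.7 CPM, again in that order. Nearly all of this was Cd14 and Cd68, while Ptprc had 0 to 5 counts per library. The part of these lists in the results that follow was not tested. In such bulk libraries, fewer cells of a type and less RNA per cell cannot be told apart.

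Libraries 12 (TGFb PD883), 14 (DMSO PD454) and 8 (DMSO PD883) stood apart by transcripts known from hepatocytes. The major urinary protein gene Mup3 had 150 counts in library 12, 99 in library 14 and 43 in library 8, against 2 counts in the other 15 libraries together. The fatty acid binding protein gene Fabp1 had 68, 40 and 23 counts in libraries 12, 14 and 8, against 0 in the other 15. Cyp2e1, the ethanol-oxidising P450 of the liver, had 47 counts in library 12, 81 in library 14 and 84 in library 8, which together made 65.0% of its 326 counts. A further 41 counts lay in library 18 (TGFb PD454), where Mup3 and Fabp1 had none. Cyp2d9, a liver P450 below the minimum, had 14, 14 and 16 counts in libraries 12, 14 and 8, and 1 count elsewhere. Of the 76 rows with 1 to 99 counts, 24 had all of their reads and 45 had more than 50% of them in these 3 libraries, which made up 24.2% of the summed effective library size. Among the 38 members this held for Cyp2e1 alone, and 34 members had 100 or more counts in the other 15 libraries. The hepatocyte transcripts and this comparison were chosen after the data were seen.

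**Figure D1:**
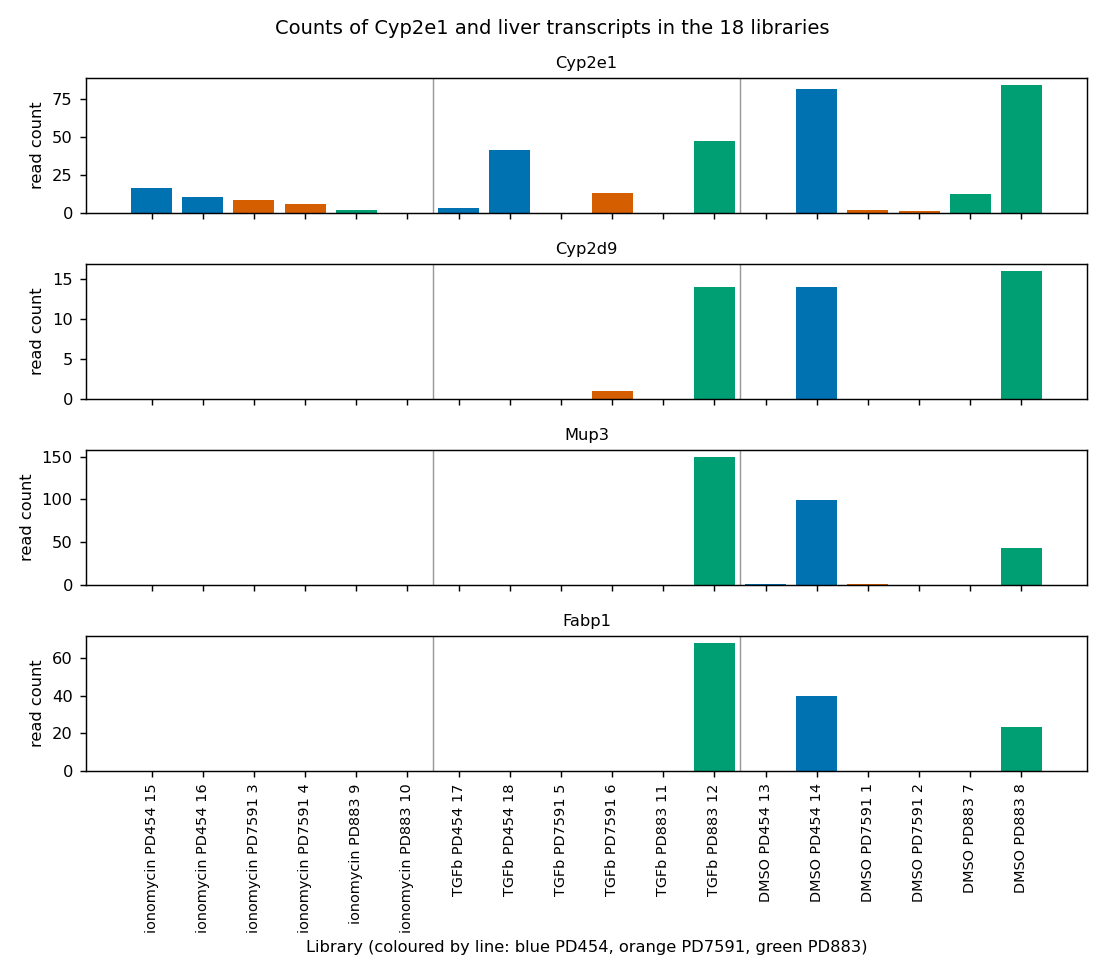
Read counts of Cyp2e1, Cyp2d9, Mup3 and Fabp1 (y axes) in each of the 18 libraries (x axis, with its treatment, line and number), with bars coloured by line and grey lines between treatments. Mup3 and Fabp1 were read almost only in libraries 12, 14 and 8, where Cyp2d9 had 14, 14 and 16 of its 45 counts, while Cyp2e1 also had 41 counts in library 18.

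By read count, the highest means over the 18 libraries were those of Cyp2s1 at 75.5 CPM, the orphan P450 Cyp20a1 at 53.6, Ugt1a7c at 48.6, Ugt1a6a at 39.6 and Cyp39a1 at 35.2. This order changed with treatment. With ionomycin Ugt1a7c led at 96.1 ± 21.9 CPM (mean ± SD of 3 line means), ahead of Cyp2s1 at 72.7 ± 36.0. With TGFb Cyp20a1 led at 53.0 ± 8.67 CPM, and Cyp2s1 had 1.59 ± 1.26. With DMSO Cyp2s1 led at 152 ± 158 CPM, a mean carried by the 393 and 271 CPM of PD883. Per kilobase of exon the order of levels was Cyp20a1 at 23.5 CPM per kb, the phenol sulfotransferase Sult1a1 at 21.1, Cyp2s1 at 15.3, Cyp39a1 at 11.5 and Ugt1a7c at 11.5. The library ranges of neighbours in this order overlapped. At the low end, 13 members lay under 1 CPM, down to Cyp2c55 at 0.232 CPM. Cyp20a1, among the abundant ones, had 36.4, 56.9 and 82.9 CPM (lowest, median and highest library) with ionomycin, 34.9, 53.9 and 65.1 CPM with TGFb and 42.3, 48.3 and 58.0 CPM with DMSO, and it passed neither test.

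**Figure D2:**
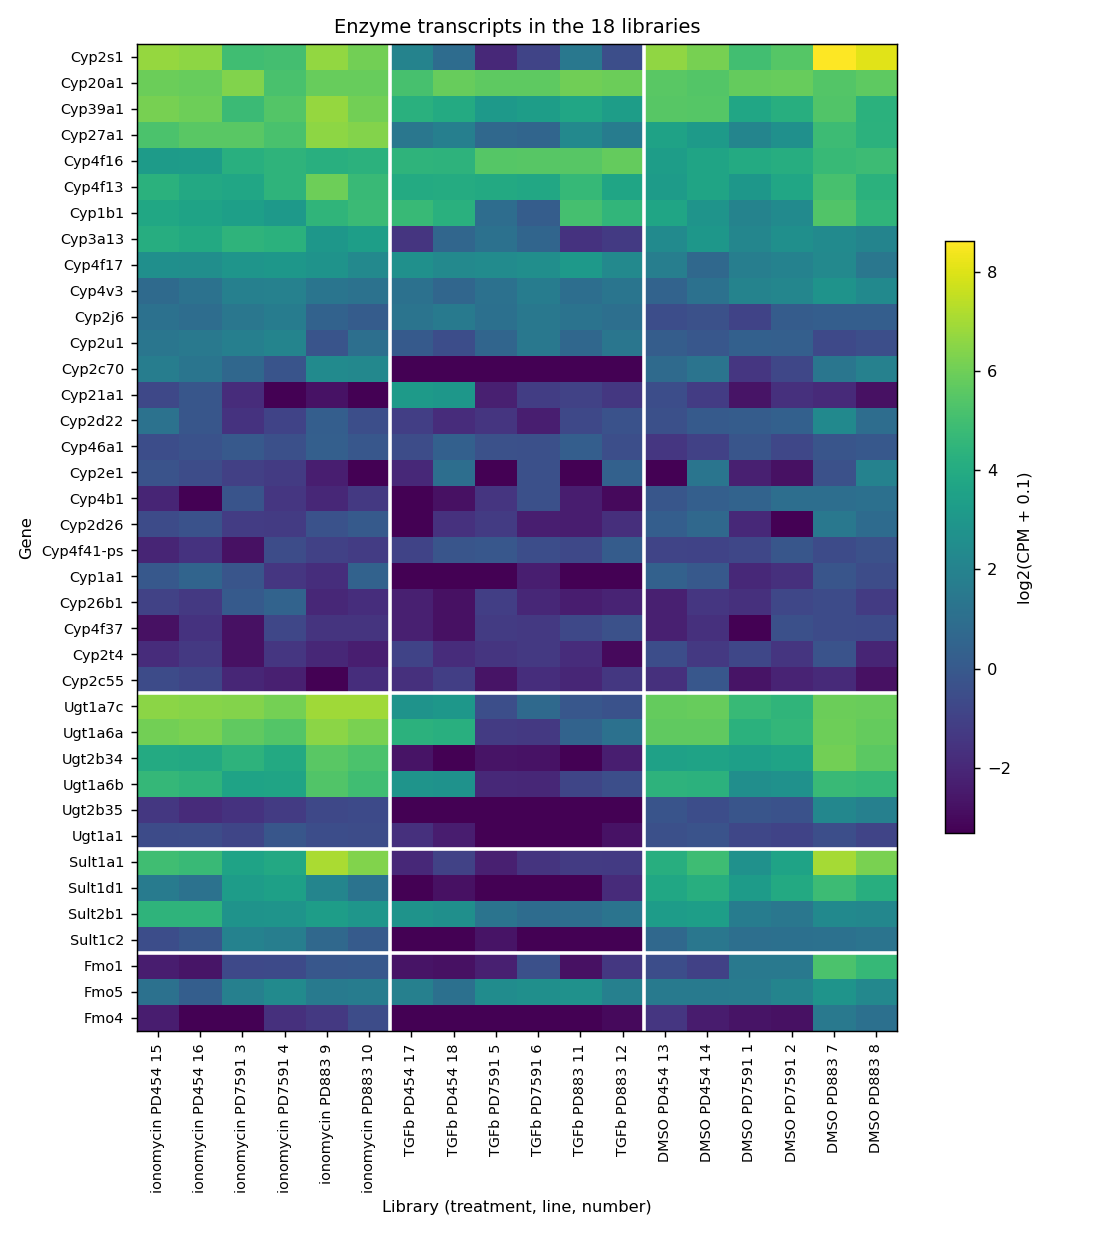
Level of each of the 38 transcripts (rows, as log2 of CPM + 0.1, colour scale) in the 18 libraries (columns), which are arranged as ionomycin, TGFb and DMSO, with white lines between treatments and between the Cyp, Ugt, Sult and Fmo families. Most Ugt and Sult rows are darker in the TGFb columns, with Ugt1a6a, Ugt1a6b and Ugt1a7c at 6.60 to 20.4 CPM in the PD454 ones, and Cyp20a1 keeps a near-even level of 34.9 to 82.9 CPM.

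With TGFb the glucuronosyltransferases and sulfotransferases fell throughout, all 6 of the first family and all 4 of the second, and 11 of 25 P450s and 2 of 3 flavin monooxygenases fell as well. In all, 27 of 38 members passed an adjusted p of 0.05 (edgeR quasi-likelihood F test over the 3 lines, Benjamini-Hochberg over the 13827 genes tested), against 50.7% of all genes. Of these, 23 fell, against 26.5% of all genes that fell, and 4 P450s rose, against 24.3% that rose. Among the 4, Cyp21a1 reached the count minimum only through its TGFb counts in PD454. The median log2 fold change was -1.68 for the members and -0.00 for all genes. Setting near-zero members at their bound could not move the median of the members, because they lie below it either way. With ionomycin the changes went both ways: 15 of 38 members passed, against 33.3% of all genes, 10 higher against 17.2% and 5 lower against 16.1%. Among the 5 lower, Cyp4b1, Fmo1, Fmo4 and Ugt2b35 reached the count minimum only through their DMSO reads, so a fall was built into their choice. They are also among the 23 lower with TGFb. So are Cyp1a1, Cyp26b1, Cyp2d26 and Ugt1a1, which would have missed the count minimum without their DMSO reads. The choice of members thus favoured a fall of these with TGFb as well. The median log2 fold change with ionomycin was 0.16 for the members and -0.03 for all genes. Without libraries 8, 12 and 14 the counts were 25 with TGFb and 14 with ionomycin. Without them the calls of Cyp26b1 (adjusted p = 0.165) and Cyp4v3 (0.0573) with TGFb and of Fmo4 (0.0971) and Cyp4f13 (0.0608) with ionomycin were lost. The 6 TGFb libraries lay entirely below the 6 DMSO libraries for 13 members, against 9.41% of all genes, and above them for 2, against 8.21%. The 6 ionomycin libraries lay entirely above those with DMSO for 4 members, against 4.54% of all genes, and below them for 2, against 2.69%. These 2, Cyp4b1 and Ugt2b35, reached the count minimum only through their DMSO reads. The 13 below with TGFb include both of them and Cyp1a1, Fmo4 and Ugt1a1, which needed their DMSO reads as well. The choice of members therefore favoured both counts of libraries below DMSO. The ionomycin and TGFb comparisons share their DMSO libraries.

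**Figure D3:**
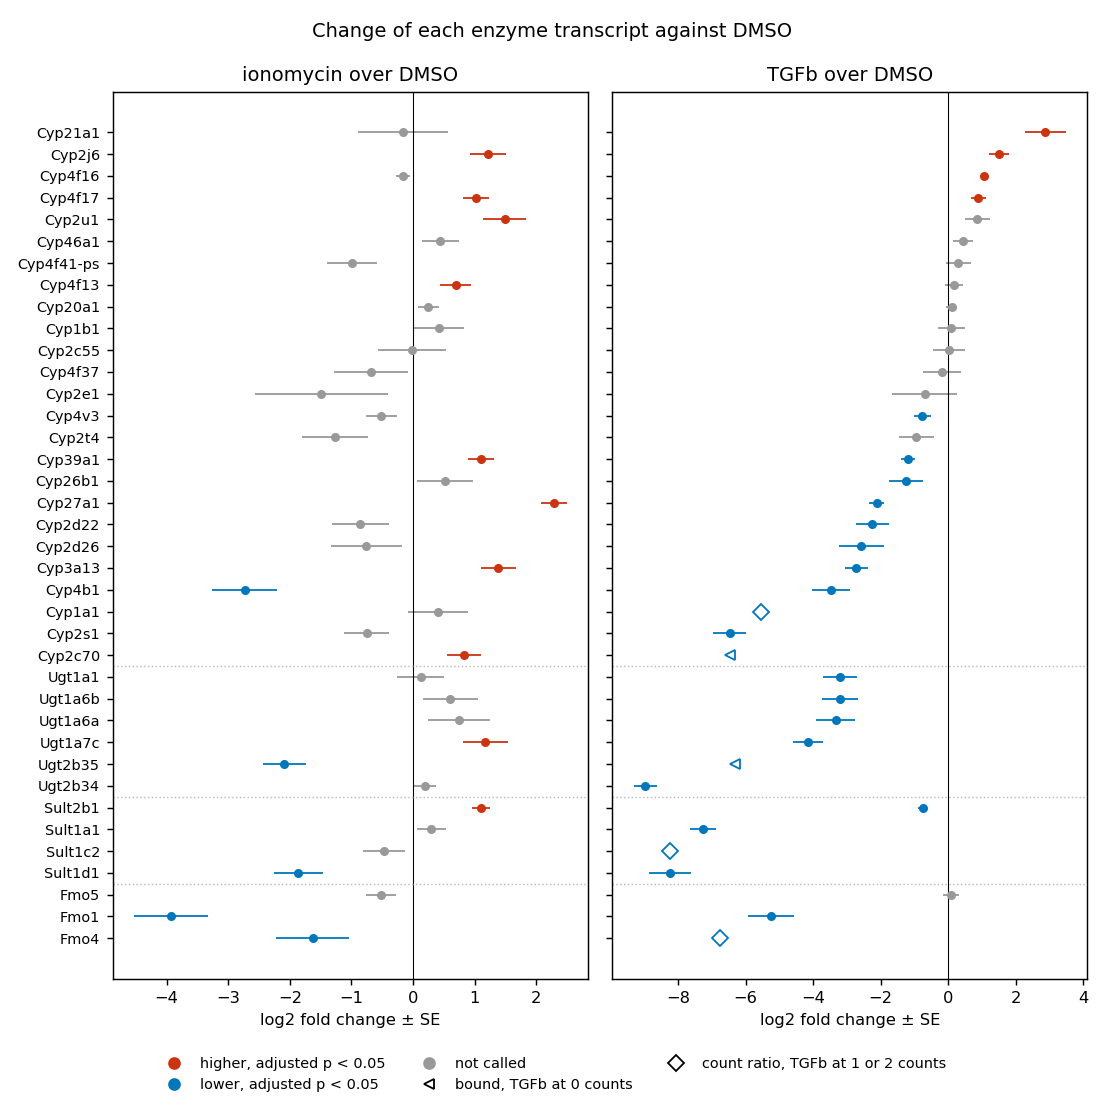
Log2 fold change with its SE (x axes) of each of the 38 transcripts (y axis) for ionomycin over DMSO (left) and TGFb over DMSO (right), red where higher and blue where lower at an adjusted p under 0.05, with open triangles for lower bounds where no read was counted with TGFb and open diamonds for count ratios where 1 or 2 were. On the right the 10 Ugt and Sult transcripts lie left of 0, and on the left Cyp27a1 has the highest value, 2.29, and Fmo1 the lowest, -3.93.

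Positions of the main members are GENCODE's on GRCm38. Of the P450s that act on sterols, Cyp27a1 (chr1:74713574-74737892, plus strand), the mitochondrial side-chain hydroxylase of bile acid synthesis, was higher with ionomycin and lower with TGFb. It had 36.3, 47.7 and 94.9 CPM (lowest, median and highest of 6 libraries) with ionomycin, 1.39, 2.88 and 4.74 CPM with TGFb and 4.16, 10.3 and 29.0 CPM with DMSO. All ionomycin libraries lay above all DMSO libraries, while the range with TGFb overlapped that with DMSO, whose lowest libraries were those of PD7591. The log2 fold change over the 3 lines was 2.29 ± 0.20 (SE) with ionomycin (adjusted p = 2.46e-07) and -2.11 ± 0.22 with TGFb (adjusted p = 2.28e-07). Within lines it passed each time, at 2.05 ± 0.26 in PD454, 2.99 ± 0.27 in PD7591 and 1.87 ± 0.25 in PD883 cells with ionomycin. Cyp39a1, an oxysterol hydroxylase, had 28.3, 65.3 and 105 CPM with ionomycin, 8.45, 11.5 and 18.7 CPM with TGFb and 13.4, 30.1 and 45.9 CPM with DMSO, so that neighbouring groups overlapped. Its log2 fold change was 1.10 ± 0.21 with ionomycin (adjusted p = 0.00055) and -1.19 ± 0.21 with TGFb (adjusted p = 0.000123). Cyp46a1, the cholesterol hydroxylase best known from neurons, had medians of 0.764, 0.667 and 0.639 CPM with ionomycin, TGFb and DMSO and passed neither test.

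Cyp2c70, which makes muricholic acids in mouse liver, had no read in any of the 6 TGFb libraries, against 248 in the 6 DMSO libraries. With 3 counts over the group taken as the floor, it was at least 87.7-fold lower with TGFb. The bound lay between 63.0 and 101.3 when 1 library was left out, and within lines it was 28.1-fold in PD454, 4.99-fold in PD7591 and 64.4-fold in PD883. With ionomycin its level was 0.753, 2.81 and 5.17 CPM, and with DMSO 0.266, 1.98 and 3.68 CPM, and the groups overlapped (log2 fold change 0.83 ± 0.27, adjusted p = 0.0324). This ionomycin call was lost without any one of libraries 1, 2, 3, 7, 9, 13 and 15 (adjusted p 0.0526 to 0.0625), without any one line (0.0627 to 0.119), with duplicates summed (0.171), with library totals (0.054) and with no line term (0.473). Cyp21a1, the steroid hydroxylase of adrenal corticoid synthesis, had 8.92 and 7.84 CPM in PD454 cells with TGFb, against 0.603 and 0.330 CPM in PD454 cells with DMSO. In the other 2 lines it stayed at or below 0.418 CPM with TGFb and 0.218 CPM with DMSO. The fold change over the 3 lines was 2.88 ± 0.61 on the log2 scale (adjusted p = 0.000656), and 4.22 ± 0.59 within PD454 (adjusted p = 6.67e-05), where alone it passed, but the test that the lines differ did not pass (adjusted p = 0.143). Cyp21a1 reached the count minimum only through its TGFb counts in PD454, so these tests only describe the counts that chose it. The gene shares 4.8% of its exon bases with Tnxa.

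Among P450s that oxidise foreign compounds, Cyp2s1 (chr7:25802475-25816913, minus strand), a P450 of epithelia outside the liver, fell with TGFb. It had 0.158, 1.19 and 3.91 CPM with TGFb, against 32.5, 86.6 and 393 CPM with DMSO, and the groups did not overlap. The log2 fold change was -6.47 ± 0.49 (adjusted p = 3.79e-09), from -4.95 ± 0.49 in PD454 to -7.80 ± 0.55 in PD883 cells. With ionomycin it had 31.0, 80.9 and 106 CPM, and a log2 fold change of -0.75 ± 0.37 did not pass (adjusted p = 0.124). Within PD883 alone it was lower, at 104 and 67.1 CPM with ionomycin against 393 and 271 CPM with DMSO (log2 fold change -1.96 ± 0.40, adjusted p = 0.00361). Over the lines the ionomycin value passed without PD454 (adjusted p = 0.0418) and with a mean per group (0.0314). Cyp3a13, of the drug-oxidising CYP3A subfamily, had 7.90, 16.1 and 21.8 CPM with ionomycin, 0.232, 0.848 and 2.06 CPM with TGFb and 4.14, 5.14 and 7.87 CPM with DMSO. Its 3 ranges did not overlap, with log2 fold changes of 1.38 ± 0.29 (adjusted p = 0.00129) for ionomycin and -2.72 ± 0.33 (adjusted p = 1.89e-06) for TGFb.

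**Figure D4:**
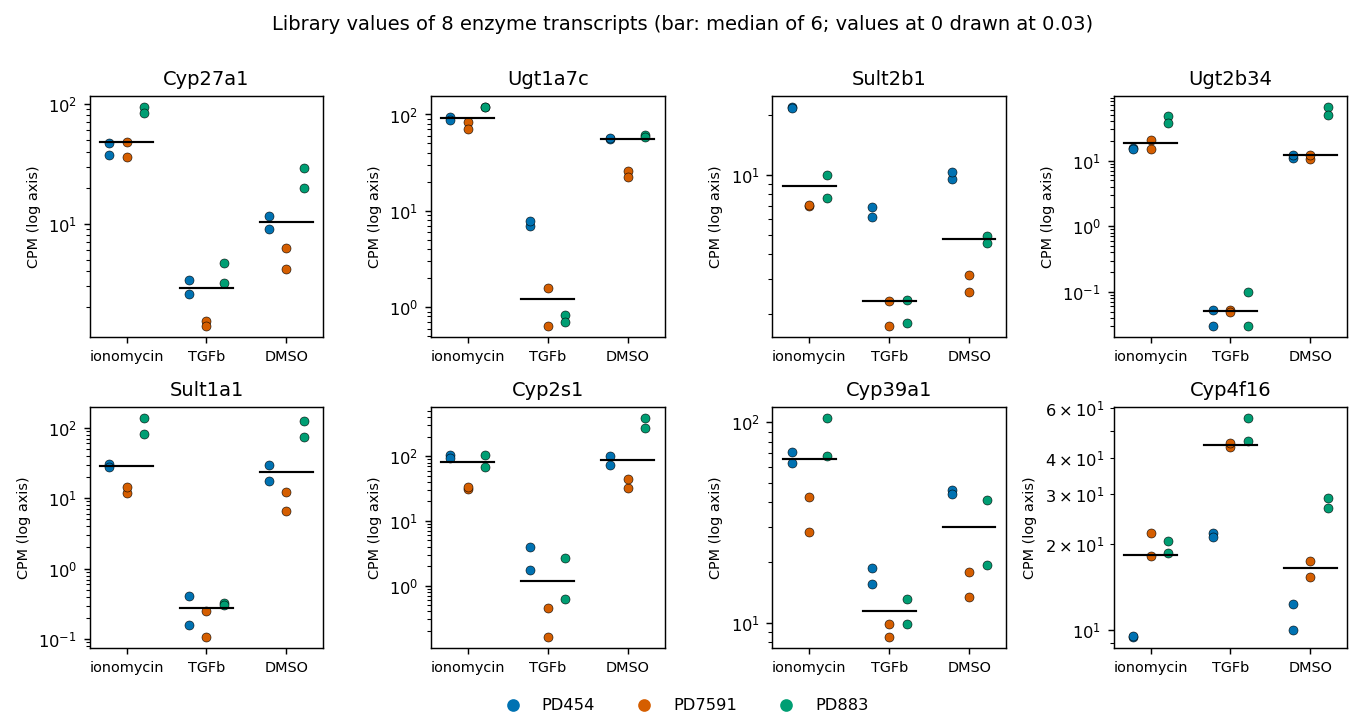
CPM on a log axis (y) of 8 enzyme transcripts in each library (points, coloured by line) under ionomycin, TGFb and DMSO (x), with a bar at the median of 6 libraries and libraries without a read drawn at 0.03. Cyp27a1 and Ugt1a7c lie highest with ionomycin, at medians of 47.7 and 90.9 CPM, Ugt2b34 and Sult1a1 lie lowest with TGFb, at 0.0513 and 0.276 CPM, and Cyp4f16 lies highest with TGFb, at 44.5 CPM.

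Cyp1a1, the classical target of the aryl hydrocarbon receptor, had 2 counts in the 6 TGFb libraries, both in library 6 (PD7591), against 87 counts with DMSO. Without its DMSO reads Cyp1a1 would have missed the count minimum, so its choice favoured such a difference. The count ratio of DMSO over TGFb was 46.1, with an exact 95% counting interval of 12.4 to 387, 33.1 to 52.6 when a library other than 6 was left out, and at least 26.4 without library 6, where no count remained with TGFb. In PD7591 alone, with 2 counts against 8, it was 3.74 with an interval of 0.747 to 36.2, so a fall was not detectable there at this depth. With ionomycin Cyp1a1 had 0.199, 0.838 and 1.34 CPM and with DMSO 0.160, 0.694 and 1.21 CPM. Cyp1b1, which the same receptor regulates, had medians of 13 CPM with ionomycin, 21.0 CPM with TGFb and 10.0 CPM with DMSO, passed neither test, and is taken up with the differences between lines. Cyp2d22 and Cyp2d26, of the drug-oxidising CYP2D subfamily, fell with TGFb, at log2 fold changes of -2.24 ± 0.48 and -2.57 ± 0.67 (adjusted p = 0.000756 and 0.00377). Their medians were 0.317 and 0.151 CPM with TGFb and 1.10 and 1.33 CPM with DMSO. Cyp2d26 would have missed the count minimum without its DMSO reads, so its test only describes the counts that chose it. The Cyp2d26 call was lost without PD454 (adjusted p = 0.0508) or PD883 (0.114), with duplicates summed (0.0545) and with libraries 8, 12, 14 and 18, which held more short transcripts, left out (0.063), and reads of such related genes may be split between copies. Cyp2e1, Cyp2c55 and Cyp2t4 passed neither test. The log2 fold change of Cyp2e1 turned from -0.69 to 0.79 for TGFb and from -1.49 to 0.36 for ionomycin without libraries 8, 12 and 14, and that for TGFb turned to 0.33 without library 8 alone.

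The P450s of fatty acid and eicosanoid oxidation moved in both directions. Cyp4f16, of the subfamily that hydroxylates leukotrienes and long-chain fatty acids, had 21.2, 44.5 and 55.5 CPM with TGFb, against 10.0, 16.4 and 29.0 CPM with DMSO. Groups overlapped across lines, but within each line both TGFb libraries lay above both DMSO libraries. Its log2 fold change was 1.07 ± 0.12 (adjusted p = 6.39e-07). Cyp4f17 rose with both agents, by 1.02 ± 0.22 with ionomycin and 0.90 ± 0.22 with TGFb on the log2 scale (adjusted p = 0.00144 and 0.00195). All libraries of either agent lay above all DMSO libraries, with medians of 6.47, 5.66 and 3.35 CPM with ionomycin, TGFb and DMSO. Cyp2j6, of a subfamily that epoxidises arachidonic acid, rose by 1.22 ± 0.29 and 1.51 ± 0.29 (adjusted p = 0.00374 and 0.000241). It had 1.94, 2.28 and 2.95 CPM with TGFb, above all DMSO libraries at 0.426, 0.847 and 1.09 CPM. Its ionomycin call was lost without PD454 (adjusted p = 0.0658) or PD7591 (0.0884) and with duplicates summed (0.0818). The fatty acid hydroxylase Cyp2u1 rose with ionomycin by 1.49 ± 0.35 (adjusted p = 0.00327, or 0.0618 without PD7591 and 0.0578 with duplicates summed), and its log2 fold change of 0.87 ± 0.36 with TGFb had an adjusted p of 0.0502. That TGFb value passed without any one of libraries 5, 9, 13, 14, 17 and 18 (0.0137 to 0.0498), without PD454 (0.0161), with DESeq2 (0.0351), with a mean per group (0.0269), with no low-count filter (0.0457) and with the length offset (0.0498).

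Cyp4b1, which hydroxylates fatty acids and foreign compounds and is known from the lung, fell with both. It had 0 to 0.753 CPM with ionomycin and 0 to 0.647 CPM with TGFb, against 0.823 to 2.04 CPM with DMSO, and neither range reached that of DMSO. The log2 fold changes were -2.73 ± 0.53 (adjusted p = 0.000698) and -3.48 ± 0.56 (adjusted p = 4.36e-05), the second -4.19 without library 6. Cyp4b1 reached the count minimum only through its DMSO reads, so these tests only describe the counts that chose it. Cyp4f13 had medians of 20.7 CPM with ionomycin, 15.4 CPM with TGFb and 12.8 CPM with DMSO. Its ionomycin call (log2 fold change 0.69 ± 0.25, adjusted p = 0.0432) was lost without any one of libraries 1, 2, 4, 8, 9, 13, 14 and 15 (0.0507 to 0.161) and without PD454 (0.141) or PD7591 (0.147), and with duplicates summed (0.0886). Cyp4v3, a fatty acid hydroxylase, fell by 0.77 ± 0.25 with TGFb (adjusted p = 0.0154), a call lost without library 7 (0.0534), library 11 (0.0524), PD7591 (0.0849) or PD883 (0.285), or with duplicates summed (0.112). Cyp4f37 and the pseudogene Cyp4f41-ps passed neither test. The 5 Cyp4f members all lie on chromosome 17 and resemble each other, so their counts are uncertain where reads fit several. Cyp26b1, which clears retinoic acid, had medians of 0.116 CPM with TGFb and 0.294 CPM with DMSO. It would have missed the count minimum without its DMSO reads. Its log2 fold change of -1.24 ± 0.50 (adjusted p = 0.0462) lost its call without any one of 14 libraries, all but 1, 5, 9 and 13 (0.0510 to 0.150), without PD454 (0.133) or PD883 (0.241), with duplicates summed (0.154), with DESeq2 (0.0533) and with limma-voom (0.0941).

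All 6 glucuronosyltransferase members fell with TGFb. The summed level of the 6 Ugt members was 1.16 to 34.9 CPM with TGFb and 142 to 302 CPM with ionomycin, against 63.3 to 223 CPM with DMSO. Ugt2b34 (chr5:86889767-86906937, minus strand), of the subfamily that conjugates steroids and lipids, had 0 to 0.101 CPM with TGFb, which was 7 counts over 6 libraries, against 10.6, 12.2 and 66.8 CPM with DMSO, which was 3342 counts. The log2 fold change was -8.97 ± 0.35 (adjusted p = 7.42e-13), and the groups did not overlap. With ionomycin Ugt2b34 had 14.8, 18.3 and 47.9 CPM and did not pass (log2 fold change 0.19 ± 0.18), although without PD883 it did (0.54, adjusted p = 0.022). Ugt2b35 had no read with TGFb, against 224 with DMSO, at least 79.2-fold lower (56.9 to 96.2 with 1 library left out). It was lower with ionomycin too, at 0.174, 0.300 and 0.538 CPM against 0.601, 0.784 and 4.56 CPM with DMSO, without overlap (log2 fold change -2.09 ± 0.35, adjusted p = 0.000501). Ugt2b35 reached the count minimum only through its DMSO reads, so its bound and test only describe the counts that chose it.

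The 4 Ugt1a rows are alternative first exons of one locus on chromosome 1, and they share exons that make up 50.3% of the exon bases of Ugt1a6a, 54.6% of Ugt1a7c, 60.6% of Ugt1a6b and 82.7% of Ugt1a1. Their counts are therefore not independent, and how shared reads were split in counting was not stated in the sources used here. Ugt1a7c (chr1:88095062-88220002, plus strand) had 70.6, 90.9 and 121 CPM with ionomycin, 0.634, 1.21 and 7.89 CPM with TGFb and 22.2, 56.3 and 61.0 CPM with DMSO, with no overlap between the 3. It rose with ionomycin by 1.17 ± 0.37 on the log2 scale (adjusted p = 0.0204), a call lost without PD7591 (0.196), with duplicates summed (0.234), with no low-count filter (0.066) and with no line term (0.175), and fell by 4.15 ± 0.44 with TGFb (adjusted p = 3.35e-07). Ugt1a6a, a conjugator of phenols, had 42.7, 70.9 and 92.2 CPM with ionomycin, 0.299, 1.69 and 20.4 CPM with TGFb and 19.5, 52.8 and 62.1 CPM with DMSO. It fell by 3.33 ± 0.59 with TGFb (adjusted p = 0.000119) and did not pass with ionomycin (0.75 ± 0.50, adjusted p = 0.257), but did on the ionomycin and DMSO libraries alone (0.00118), with a mean per group (0.000118) and without PD454 (0.0111). Ugt1a6b fell by 3.20 ± 0.54 with TGFb, and with ionomycin it did not pass (0.61 ± 0.45, adjusted p = 0.314), but did on the ionomycin and DMSO libraries alone (0.00927), with a mean per group (0.000399) and without PD454 (0.004). Ugt1a1, the bilirubin-conjugating form, had 8 counts with TGFb, against 76 with DMSO, with a log2 fold change of -3.19 ± 0.51 (adjusted p = 3.93e-05), or -3.86 without library 17. It would have missed the count minimum without its DMSO reads, so its choice favoured this fall.

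Among sulfotransferases, Sult1a1 (chr7:126672865-126676432, minus strand), which sulfates phenols, had 0.106, 0.276 and 0.415 CPM with TGFb, against 6.50, 23.7 and 127 CPM with DMSO. The groups lay far apart in every line, and the log2 fold change was -7.26 ± 0.38 (adjusted p = 3.34e-11). With ionomycin it had 11.9, 29.1 and 139 CPM and did not pass (0.30 ± 0.23). Sult1d1, which sulfates catecholamines in the mouse, had 8 counts with TGFb, 7 of them in library 12, against 2273 with DMSO, a log2 fold change of -8.24 ± 0.63 (adjusted p = 4.27e-09), or -10.16 without library 12. It fell with ionomycin as well, at 2.15, 3.64 and 10.9 CPM against 9.38, 16.6 and 28.6 CPM with DMSO (-1.86 ± 0.40, adjusted p = 0.00171, or 0.0522 without PD454 and 0.0728 with duplicates summed). Sult1c2 had 1 count with TGFb, against 285 with DMSO, a count ratio of DMSO over TGFb of 302 with an interval of 53.8 to 11978, 217 to 316 when a library other than 5 was left out, and at least 87.2 without library 5. With ionomycin Sult1c2 had 0.600 to 3.76 CPM, against 1.54 to 2.58 CPM with DMSO, and did not pass. Sult2b1, which sulfates cholesterol and hydroxysteroids, went the other way with ionomycin, at 6.96, 8.83 and 22 CPM against 2.57, 4.75 and 10.3 CPM with DMSO. It rose in each line and by 1.10 ± 0.14 over the lines (adjusted p = 1.11e-05), while with TGFb it had 1.74, 2.34 and 6.91 CPM and fell by 0.76 ± 0.14 (adjusted p = 0.000234).

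Shown are the promoters of 3 enzymes that fell with TGFb and carry a TGANTCA match, Ugt1a6a, Ugt2b35 and Cyp3a13, and that of Cyp1a1. The first 3 did not move together with ionomycin, where Cyp3a13 was higher, Ugt2b35 lower and Ugt1a6a not called. They run from 250 bases before to 50 bases after the RefSeq start on build GRCm38.p6, 5′ to 3′ on the strand of the gene. Capitals mark the AP-1 motif TGANTCA, with any base at N and searched on both strands, in the first 3. In Cyp1a1 they mark the core GCGTG of the aryl hydrocarbon receptor motif. The marked letters are TGATTCA in Ugt1a6a and Ugt2b35, and TGACTCA and TGAGTCA in Cyp3a13. The intervals are chr1:88134559-88134858 on the plus strand for Ugt1a6a, chr5:87000610-87000909 on the plus strand for Ugt2b35, chr5:137921570-137921869 on the minus strand for Cyp3a13 and chr9:57697363-57697662 on the plus strand for Cyp1a1.
Ugt1a6a: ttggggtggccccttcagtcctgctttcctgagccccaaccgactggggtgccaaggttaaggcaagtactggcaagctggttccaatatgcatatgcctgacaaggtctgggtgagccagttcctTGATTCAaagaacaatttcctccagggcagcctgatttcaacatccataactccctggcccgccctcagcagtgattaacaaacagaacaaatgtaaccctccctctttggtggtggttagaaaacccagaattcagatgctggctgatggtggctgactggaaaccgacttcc
Ugt2b35: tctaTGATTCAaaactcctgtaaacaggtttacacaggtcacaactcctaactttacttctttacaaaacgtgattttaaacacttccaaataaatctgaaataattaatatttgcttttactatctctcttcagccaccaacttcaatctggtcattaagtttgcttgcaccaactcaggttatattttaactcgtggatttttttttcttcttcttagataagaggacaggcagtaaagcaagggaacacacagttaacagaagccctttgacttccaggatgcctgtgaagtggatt
Cyp3a13: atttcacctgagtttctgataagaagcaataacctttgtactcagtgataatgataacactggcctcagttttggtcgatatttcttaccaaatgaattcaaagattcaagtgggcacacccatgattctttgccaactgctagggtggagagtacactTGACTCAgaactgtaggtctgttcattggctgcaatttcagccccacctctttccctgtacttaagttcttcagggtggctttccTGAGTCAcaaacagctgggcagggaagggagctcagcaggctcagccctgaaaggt
Cyp1a1: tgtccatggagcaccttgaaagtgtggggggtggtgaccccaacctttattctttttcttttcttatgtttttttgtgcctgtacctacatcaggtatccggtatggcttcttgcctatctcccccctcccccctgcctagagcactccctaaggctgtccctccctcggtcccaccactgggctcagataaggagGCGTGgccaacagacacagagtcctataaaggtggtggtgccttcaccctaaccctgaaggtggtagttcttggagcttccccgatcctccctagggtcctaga

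With the start base as 1 and the base before it as -1, the marked letters begin at -124 in Ugt1a6a, -246 in Ugt2b35, -91 and -6 in Cyp3a13, and -54 in Cyp1a1. Of the 38 members, 30 had a promoter in the RefSeq table, which holds 32851 promoters of the same length. GCGTG stood in 8 members (26.7%) against 32.4% of all promoters, among them Cyp1a1, Cyp1b1, Cyp4f16 and Cyp20a1. The AP-1 motif TGANTCA stood in 8 (26.7%) against 7.81%: Ugt1a6a, Ugt2b35, Cyp2c70, Cyp3a13, Cyp4b1, Cyp4f16, Cyp4f37 and Sult2b1. Of these, Cyp4f16 rose with TGFb, and Ugt2b34, Sult1a1 and Cyp2s1, which had the smallest p with TGFb, had no match. The SMAD motif CAGACA stood in 6 of the 30, against 21.0%, the NFAT core GGAAA in 20 (66.7%) against 61.3%, and the ATF4 composite motif TGATGNAA in 0 against 3.97%. A direct repeat motif of retinoic acid receptors was in none of the 30, against 0.204% of all promoters. A match is a run of letters and not a bound site.

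Of the flavin monooxygenases, Fmo1 and Fmo4 passed as lower with both agents in the test over the lines, and Fmo5 passed neither test. Fmo1 and Fmo4 reached the count minimum only through their DMSO reads. Their tests and ratios against DMSO therefore only describe the counts that chose them. Fmo1 had 0.0581, 0.528 and 0.880 CPM with ionomycin, 0.0461, 0.0792 and 0.647 CPM with TGFb and 0.390, 2.74 and 37.3 CPM with DMSO. The highest DMSO values, 37.3 and 25.2 CPM, were both from PD883, and ranges overlapped across lines but not within them. Its log2 fold change was -3.93 ± 0.60 with ionomycin (adjusted p = 8.45e-05) and -5.23 ± 0.68 with TGFb (adjusted p = 3.91e-06), the second -6.34 without library 6 and -4.56 without library 11. Fmo4 had 1 count with TGFb, in library 12, against 102 with DMSO, a count ratio of DMSO over TGFb of 108 (19.0 to 4313), 66.0 to 140 when a library other than 12 was left out, and at least 25.9 without library 12. PD883 held 92 of these DMSO counts. In PD454 Fmo4 had 0 counts with TGFb against 8 with DMSO, at least 2.10-fold lower. PD7591 had 1 count in each DMSO library, so a fall was not detectable there at this depth, and 0 and 4 counts with ionomycin. The ionomycin call of Fmo4 (-1.63 ± 0.60, adjusted p = 0.0431) was lost with duplicates summed (0.217), with DESeq2 (0.153), without PD454 (0.0853) and without any one of 15 libraries, all but 2, 4 and 14 (0.0524 to 0.200). Fmo5, an enzyme that inserts oxygen next to carbonyl groups, had medians of 3.03 CPM with ionomycin, 4.56 CPM with TGFb and 3.59 CPM with DMSO.

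Set directly against TGFb, ionomycin gave higher levels for 20 members and lower levels for 4, so 24 of 38 passed, against 62.9% of all genes. The shares of all genes were 31.0% higher and 31.9% lower. Higher with ionomycin were Ugt2b34 (log2 fold change of ionomycin over TGFb 9.16 ± 0.35, adjusted p = 3.14e-13), Sult1a1 (7.56 ± 0.38), Cyp2s1 (5.72 ± 0.47), Ugt1a7c (5.32 ± 0.46) and Cyp27a1 (4.40 ± 0.23). Lower with ionomycin were Cyp21a1 (-3.04 ± 0.59), Cyp4f41-ps (-1.29 ± 0.40), Cyp4f16 (-1.23 ± 0.12) and Fmo5 (-0.61 ± 0.24, adjusted p = 0.0355). Cyp21a1 reached the count minimum only through its TGFb reads, so its value only describes the counts that chose it. Among the 20 higher, Cyp1a1, Cyp26b1 and Ugt1a1 would have missed the minimum without their ionomycin reads. Cyp2j6 and Cyp4f17 did not pass, with log2 differences of -0.29 ± 0.27 and 0.13 ± 0.21.

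**Figure D5:**
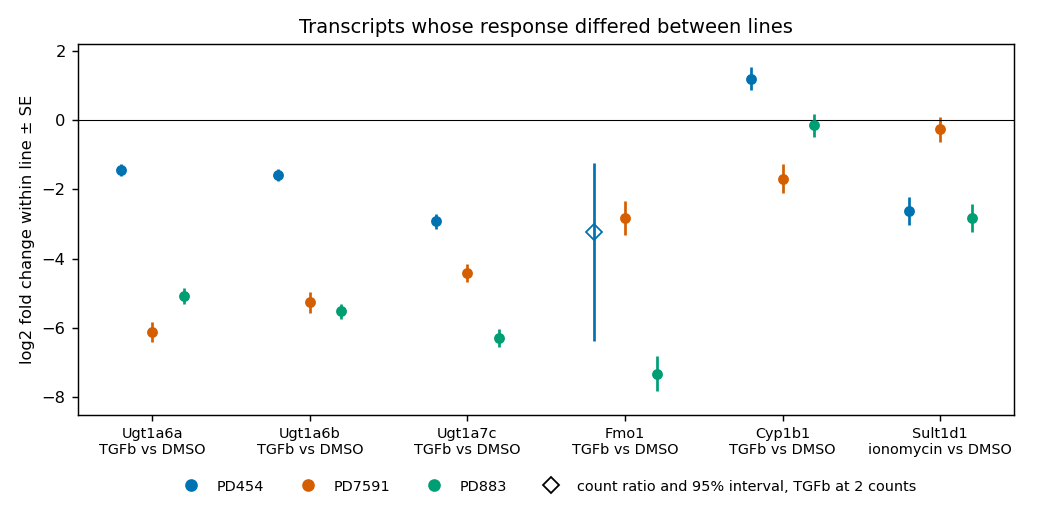
Log2 fold change against DMSO within each line (y axis, points coloured by line, bars SE) of the 6 transcripts whose response passed the test of a difference between lines (x axis), with an open diamond and its 95% counting interval where TGFb had 2 counts. Ugt1a6a and Ugt1a6b lie at -1.44 and -1.58 in PD454 and below -5 in the other lines, and Cyp1b1 lies above 0 in PD454 and below 0 in PD7591.

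The response to TGFb differed between lines for 5 members, against 5.26% of all genes, and that to ionomycin for 1, against 2.59%. Ugt1a6a had 20.4 and 18.5 CPM in PD454 cells with TGFb against 52.7 and 52.8 CPM with DMSO, 0.317 and 0.299 CPM in PD7591 cells against 19.5 and 23.9 CPM, and 1.30 and 2.07 CPM in PD883 cells against 62.1 and 55.4 CPM. The log2 fold changes were -1.44 ± 0.18, -6.12 ± 0.29 and -5.07 ± 0.22, and they differed at an adjusted p of 4.28e-06. Ugt1a6b, which shares exons with it, gave -1.58 ± 0.17, -5.26 ± 0.30 and -5.51 ± 0.22 in the same order of lines (adjusted p = 4.52e-06). Ugt1a7c had 6.97 and 7.89 CPM in PD454 cells with TGFb, 0.634 and 1.59 CPM in PD7591 and 0.837 and 0.707 CPM in PD883, with log2 fold changes of -2.92 ± 0.21, -4.42 ± 0.26 and -6.29 ± 0.27 (adjusted p = 0.000218). So the fall of these 3 Ugt1a rows passed in every line and was least deep in PD454.

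Cyp1b1, an oxidiser of polycyclic hydrocarbons and oestrogens, moved in opposite directions. It had 26.3 and 18.9 CPM in PD454 cells with TGFb against 12.8 and 7.21 CPM with DMSO, a log2 fold change of 1.19 ± 0.33 (adjusted p = 0.0138). In PD7591 it had 1.80 and 1.05 CPM with TGFb against 3.94 and 5.15 CPM with DMSO, or -1.69 ± 0.42 (adjusted p = 0.00579). In PD883 the value was -0.15 ± 0.32, and the lines differed at an adjusted p of 0.0152. Fmo1 gave -2.82 ± 0.50 in PD7591 and -7.32 ± 0.50 in PD883 cells with TGFb (adjusted p of the difference 0.00988), and in PD454 it had 2 counts against 24 with DMSO, a count ratio of DMSO over TGFb of 9.46 (2.35 to 82.6). For ionomycin the one such member was Sult1d1, at 3.00 and 2.15 CPM in PD454 cells against 13.7 and 18.1 CPM with DMSO, 9.64 and 10.9 CPM in PD7591 against 9.38 and 15.3 CPM, and 4.27 and 2.25 CPM in PD883 against 28.6 and 17.9 CPM. The log2 fold changes were -2.61 ± 0.41, -0.27 ± 0.37 and -2.83 ± 0.40 (adjusted p of the difference 0.0337), but this call was lost without any one of libraries 1, 2, 3, 4, 5, 6, 7, 14, 15 and 16. No member passed without any one of these except 5 and 6, where 1 other did, and 3 passed without library 8, 11 or 12. For TGFb, 8 members passed without library 18 and 3 without library 6. Without libraries 8, 12 and 14 the count for ionomycin was 8 and that for TGFb 5.

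Within single lines, 24 members passed with TGFb in PD454, 19 in PD7591 and 26 in PD883, against 31.0%, 37.8% and 38.4% of all genes. With ionomycin 11, 12 and 14 members passed in the same lines, against 21.0%, 18.6% and 22.5% of all genes. In PD454 this ionomycin count was 4 without library 14, 15 or 16 and 5 without libraries 8, 12 and 14, and in PD883 it was 9 without library 9. Under DMSO alone, 20 of 38 members differed between the 3 lines, against 47.9% of all genes. Fmo1 had 37.3 and 25.2 CPM in PD883, 2.77 and 2.70 CPM in PD7591 and 0.603 and 0.390 CPM in PD454 cells (adjusted p = 2.56e-07). Ugt2b34 had 66.8 and 49.2 CPM in PD883 against 10.6 to 12.3 CPM in the 4 libraries of the other lines (adjusted p = 2.24e-06). Sult1a1 had 127 and 73.9 CPM in PD883, 17.6 and 29.8 CPM in PD454 and 6.50 and 12.1 CPM in PD7591 (adjusted p = 1.22e-05). Ugt1a6b instead stood out by its low level in PD7591, 5.81 and 6.41 CPM, against 20.5 to 27.6 CPM in the other lines (adjusted p = 1.46e-06).

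The transcripts that serve these enzymes were read from 8 lists, each count of which stands against 24.3% of all genes higher and 26.5% lower with TGFb, and 17.2% higher and 16.1% lower with ionomycin. Of 24 tested nuclear receptors and regulators, 3 rose and 16 fell with TGFb, and 6 rose and 3 fell with ionomycin. Their median log2 fold change was -1.0 with TGFb and 0.06 with ionomycin, against -0.00 and -0.03 for all genes. The bile acid receptor Nr1h4 fell with both, at log2 fold changes of -3.22 ± 0.18 with TGFb (adjusted p = 4.9e-11) and -0.83 ± 0.16 with ionomycin (adjusted p = 0.000616). Tiparp, a target and repressor of the aryl hydrocarbon receptor, rose with TGFb by 0.70 ± 0.11, and Cebpb, a transcription factor of liver genes, rose with ionomycin by 1.18 ± 0.19. Chosen after their values were seen, Hnf4a, the aryl hydrocarbon receptor Ahr and the glucocorticoid receptor Nr3c1 fell with TGFb, at log2 fold changes of -2.31 ± 0.33, -0.98 ± 0.22 and -1.34 ± 0.17. With ionomycin these 3 lay between -0.61 and 0.09 and did not pass. Hnf4a had a median of 50.6 CPM with TGFb and 335 CPM with DMSO.

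Of 12 electron donors, 1 rose and 6 fell with TGFb, and 5 rose and 2 fell with ionomycin. The median log2 fold change of the list was -0.28 with TGFb and 0.18 with ionomycin. Fdx1, the ferredoxin that feeds mitochondrial P450s such as Cyp27a1, fell by 1.99 ± 0.18 with TGFb (adjusted p = 2.6e-08), to a median of 11.9 CPM against 51.8 CPM with DMSO. Cyb5r3, a cytochrome b5 reductase, rose with TGFb by 0.43 ± 0.12. With ionomycin Cyb5r1, of the same reductase family, rose by 1.07 ± 0.16 and the cytochrome Cyb5b fell by 0.38 ± 0.08. The P450 reductase Por, named after its values were seen, fell by 0.59 ± 0.10 with TGFb and rose by 0.32 ± 0.10 with ionomycin. Of 13 genes that supply or remove the groups to be attached, 2 rose and 7 fell with TGFb, and 2 rose and 2 fell with ionomycin. The ionomycin counts are near the shares of all genes, while the 7 lower with TGFb stand against 26.5% of all genes. The median log2 fold change of the list was -0.29 with TGFb and -0.03 with ionomycin. Slc35d1, which carries UDP-glucuronic acid into the endoplasmic reticulum, fell by 1.96 ± 0.25 with TGFb and rose with ionomycin by 0.76 ± 0.24, with medians of 106, 13.3 and 68.6 CPM with ionomycin, TGFb and DMSO. Gusb, which removes glucuronic acid, rose with TGFb by 0.61 ± 0.16. Papss2, which makes the sulfate donor, fell by 0.73 ± 0.16 with ionomycin.

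Of 12 genes of methyl and acetyl conjugation and hydrolysis, 2 rose and 5 fell with TGFb, and 2 rose and 1 fell with ionomycin; the 2 higher with ionomycin are near the share of all genes. The median log2 fold change of the list was -0.67 with TGFb and 0.16 with ionomycin. The epoxide hydrolase Ephx2 fell by 2.35 ± 0.14 with TGFb, and the thiopurine methyltransferase Tpmt rose by 0.93 ± 0.15. With ionomycin the paraoxonase Pon3 rose by 0.50 ± 0.11 and the acetyltransferase Nat2 fell by 0.39 ± 0.14. Of 28 alcohol, aldehyde and carbonyl enzymes, 2 rose and 16 fell with TGFb, and 11 rose and 1 fell with ionomycin, with medians of -1.13 with TGFb and 0.39 with ionomycin. The retinal dehydrogenase Aldh1a1 fell by 6.27 ± 0.29 with TGFb (adjusted p = 4.49e-12), to a median of 0.541 CPM against 44.3 CPM with DMSO. The retinol dehydrogenase family member Dhrs9 rose with ionomycin by 2.29 ± 0.29, and the aldo-keto reductase Akr1c19 fell by 0.90 ± 0.32. Of 10 efflux pumps, 1 rose and 5 fell with TGFb, and 3 rose and 2 fell with ionomycin, with medians of -0.72 with TGFb and 0.29 with ionomycin. Abcc3, which exports glucuronides, fell by 3.51 ± 0.20 with TGFb, and Abcc1 rose by 0.53 ± 0.13. With ionomycin Abcc4 rose by 0.70 ± 0.11 and Abcg2 fell by 1.08 ± 0.20.

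Of 12 retinoid genes that act with the CYP26 enzymes, 5 rose and 5 fell with TGFb, and 3 rose and 3 fell with ionomycin, against 24.3% higher and 26.5% lower of all genes with TGFb and 17.2% and 16.1% with ionomycin. The median log2 fold change of the list was 0.36 with TGFb and -0.05 with ionomycin. Aldh1a3, which makes retinoic acid, rose with TGFb by 4.48 ± 0.38 to a median of 34.4 CPM, against 2.15 CPM with DMSO. The plasma retinol carrier Rbp4 fell by 2.93 ± 0.25 with TGFb and rose with ionomycin by 1.66 ± 0.23, and Rdh11, a retinal reductase, fell by 0.39 ± 0.10 with ionomycin. Of 11 genes of vitamin D and oxysterol handling, 4 rose and 2 fell with TGFb, and 5 rose and 3 fell with ionomycin, with medians of 0.58 with TGFb and 0.28 with ionomycin. The sterol exporter Abcg1 rose with TGFb by 3.70 ± 0.33 and fell by 2.14 ± 0.47 with ionomycin, and the oxysterol receptor Nr1h3 fell by 1.45 ± 0.32 with TGFb. Stard5, a sterol carrier, rose with ionomycin by 1.74 ± 0.13 (adjusted p = 3.98e-08).

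The genes whose levels followed a member most closely over the 18 libraries were found by Spearman correlation of log2 CPM, which here reflects shared treatments, lines and library properties. Cyp27a1 was followed by Aldh1l2 (rho 0.979) and Crebl2 (0.977), among others, and Sult2b1 by Fam131c (0.967), Klrg2 (0.959) and Rmdn3 (0.957). Fmo1 had looser neighbours, Eml4 (0.911), Shmt1 (0.884) and Pwwp2a (0.870). Ugt2b34 was followed by Lrrc73 (0.961), Gstt3 (0.953) and Elmo3 (0.947), Sult1a1 by Rab14 (0.983), Entpd2 (0.977) and Marveld3 (0.973), and Cyp2s1 by Impa2 (0.965), Krt19 (0.950) and Per1 (0.950).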

How the data were processed

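RNA-seq read counts per gene symbol were used as deposited by the authors, unscaled, for 18 libraries. Per the submitters' processing notes, CASAVA, Trimmomatic 0.32, STAR and featureCounts were used with mouse build mm10; the sources used here give neither strand mode nor annotation release. The main tests used edgeR 4.0.16 under R 4.3.3 (filterByExpr over the 9 groups, 13827 genes kept, TMM factors, robust quasi-likelihood F tests, treatment plus line over all libraries; a mean per group for effects within lines and their differences). An adjusted p under 0.05 was called. SE is the log2 fold change over the square root of F. CPM use TMM-scaled library sizes. Floors of 3 counts and exact 95% intervals cover counting error only. Exon lengths and positions are GENCODE's for GRCm38, promoters RefSeq's. The script was tested on simulated data.

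Members, gene lists, tests and the rule for named genes (smallest p per comparison or list, highest mean level) were chosen with earlier results of these data known. Alternatives were RLE factors, library totals, no filter, a length offset, DESeq2 1.42.0, limma-voom 3.58.1, a model without the line, group means, duplicates added up, the libraries of 2 treatments alone, a log2 fold change of at least 1, and left-out libraries and lines. A few genes and a motif that met these rules are not reported here.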

Additional observations from a re-analysis of the deposited data

Results flagged for a closer look

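In groups of 6 libraries, 1 library lay far from the other 5 for 7 of 114 groups of member and treatment; chance alone flags about 1 in 20 groups. Of these, 6 were TGFb libraries, mostly at few counts. Fmo4 had 0.0252 CPM in library 12 (TGFb PD883) and 0 in the other TGFb libraries. Sult1d1 had 0.177 CPM in the same library, Cyp1a1 had 0.0996 CPM in library 6 (TGFb PD7591), and Sult1c2 had 0.0528 CPM and Cyp26b1 0.370 CPM in library 5 (TGFb PD7591). Cyp4f13 had 25.1 CPM in library 11 (TGFb PD883), against 12.9 to 15.9 CPM in the others. Cyp2c55 had 0.841 CPM in library 14 (DMSO PD454), one of the 3 libraries with hepatocyte transcripts. Responses that differed between the lines by the joint test were those of Ugt1a6a (adjusted p = 4.28e-06), Ugt1a6b (4.52e-06), Ugt1a7c (0.000218), Fmo1 (0.00988) and Cyp1b1 (0.0152) to TGFb, and of Sult1d1 (0.0337) to ionomycin.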

How the results depend on the processing

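Single libraries could not be paired between treatments because the groups share no library numbers, but the line term compared treatments within lines. Of the single-member values, 24 of 52 results kept direction and side of the threshold in all of up to 34 settings. Member counts that moved by over 1.5 times were the following. For ionomycin against DMSO (15), 8 passed with duplicates summed and 4 at a log2 fold change of at least 1. Line dependence of the ionomycin response (1) gave 7 with no filter, 2 with the length offset, 8 without 4 libraries rich in short transcripts, 8 without the 3 with hepatocyte transcripts, 7 with DESeq2, 4 with limma-voom and 0 to 3 with 1 library left out. That of the TGFb response (5) gave 9 with no filter, 8 without the 4 libraries, 10 with DESeq2 and 3 to 8 with 1 library left out. Within PD454 the ionomycin count (11) was 5 without the 4 and without the 3 libraries, and 4 to 12 with 1 left out; within PD883 (14) it was 9 to 15. The cause was not tested. The 4 libraries rich in short transcripts are 8, 12, 14 and 18, and the 3 among them with hepatocyte transcripts are 8, 12 and 14. With no line term the calls of Sult2b1 with ionomycin (adjusted p = 0.109) and TGFb (0.234) were lost.

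Values that changed sign had all missed the threshold. Cyp2e1 with ionomycin was 0.58 and 0.36 without the 4 and the 3 libraries, and with TGFb 0.79 without the 3, 0.33 without library 8 (range -1.14 to 0.33 over single libraries) and 0.21 without PD883. Cyp1b1 with TGFb was -0.17 and -0.11 without the 4 and the 3, -0.15 without library 17, -0.09 without library 14, -0.22 with a mean per group, -0.083 with 2 treatments alone and -0.61 without PD454, and with ionomycin -0.013 without PD7591. Ugt2b34 with ionomycin was -0.088 with no line term and -0.024 without PD7591. Depth limits members with few reads: a count of 3 or fewer in a group gives a bound or a wide interval.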

Other observations

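Below the count minimum, Cyp11a1, which starts steroid synthesis from cholesterol, had 60 counts in all. TGFb libraries held 33 in library 12, 8 in library 5, 8 in library 11, 5 in library 18, 2 in library 6 and 1 in library 17, the ionomycin libraries held 0, and of the DMSO libraries library 14 held 3. It was too low to be tested. Ugt1a9, a further row of the Ugt1a locus, had 54 counts, of which library 17 held 1 and the other TGFb libraries 0.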
